A study of Mus musculus with 12 samples.

Results

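The proteasome genes of G1E-ER4 cells were examined across the 4 treatment groups of an RNA sequencing series. Members were the genes whose symbol starts with Psm, a letter from a to g and a digit, which gave 50 of the 32699 genes listed. They divide into 8 Psma, 11 Psmb, 7 Psmc, 14 Psmd, 5 Psme, 1 Psmf and 4 Psmg genes. The symbol rule also took in Psmc3ip, a meiotic recombination factor that is no proteasome subunit and is kept apart from the roles below. Of the 50 members, 45 passed the expression filter, CPM (counts scaled to a common library total) over 10 in at least 2 libraries, among 8273 genes that did so.

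G1E-ER4 is a mouse erythroid line derived from cells that lack GATA-1, the main transcription factor of red cell development. All 12 libraries come from this 1 line at passages 35 to 40, kept in erythropoietin, stem cell factor and puromycin, and all of these cells carry GATA-1 fused to the estrogen receptor. The groups were cells given, for 30 h, 10 µM Thiamet-G and 1 µM β-estradiol together (TMG_E2), β-estradiol alone (E2) or Thiamet-G alone (TMG), and cells given neither (Ctrl), for which the labels state no time, with 3 libraries each. β-estradiol releases the GATA-1 fusion to act, which starts red cell differentiation, and Thiamet-G blocks OGA, the enzyme that takes the sugar O-GlcNAc off proteins, so that O-GlcNAc levels increase. Nothing in the labels says that the 3 libraries of a group came from separate cultures. The p-values then reflect the variation among libraries alone, part or all of which may be technical.

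The proteasome is a barrel-shaped protease that cuts up proteins tagged with ubiquitin. Its core stacks outer rings of α subunits (Psma) on inner rings of β subunits (Psmb), some of which carry the cutting sites. A cap of ATPases (Psmc) and other subunits (Psmd) binds ubiquitin chains, removes them, unfolds the protein and feeds it into the core, and other activators (Psme) can take the place of the cap. Dedicated chaperones (Psmg for the core, Psmd5, Psmd9 and Psmd10 for the cap) assist its assembly. Immune cells swap the cutting subunits for Psmb8, Psmb9 and Psmb10. In red cell maturation the ubiquitin and proteasome system is known for clearing proteins that the mature cell does not keep.

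The libraries held 17589380 to 23178721 expected counts, so that 3 counts amount to 0.132 to 0.178 CPM in a library. The labels call the cells embryonic stem cells at the blastocyst stage, but the stem cell markers Pou5f1, Sox2, Zfp42 and Dppa5a had 0 counts in all 12 libraries and the 6 markers of that list summed to at most 0.279 CPM. The 8 erythroid markers summed to between 25449 and 28421 CPM in libraries with E2, against 1321 to 1430 CPM in libraries without it. Markers of mast cells summed to 0.278 to 0.903 CPM with E2 and 76.2 to 99.5 CPM without it. Il1rl1 made up most of the sum without E2, at a mean of 56.1 CPM in Ctrl cells and 0.426 CPM in E2 cells. Cpa3 and Ms4a2 were also lower in E2 cells than in Ctrl cells (0.0186 against 15.0 CPM and 0.0799 against 14.6 CPM). Of the same list, Mcpt4 and Tpsb2 had 0 counts and Cma1 lay at or below 0.0595 CPM in every library. Myeloid markers stayed at or below 5.30 CPM and lymphoid markers at or below 1.22 CPM in every library. Of the megakaryocyte list, which summed to 38.2 to 45.4 CPM with E2 and 77.1 to 93.4 CPM without it, only Nbeal2 passed the filter. Nbeal2 made up most of that sum, at a mean of 25.8 CPM in E2 cells and 77.6 CPM in Ctrl cells. Pf4 and Gp1ba were also lower in E2 cells than in Ctrl cells (0.389 against 1.21 CPM and 1.43 against 2.96 CPM). Gp9 was higher (6.13 against 0.802 CPM), Itga2b was nearly equal (5.89 against 5.92 CPM) and Ppbp had 0 counts. In these bulk libraries fewer cells of a type and less RNA per cell cannot be told apart.

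Standard subunits of the core and the cap were abundant in every group. Per transcript length, the 14 standard core genes ranged from 167 TPM (a level scaled for transcript length and library total) for Psma3 to 631 TPM for Psmb4 in E2 cells, a ratio of 3.78 between the highest and the lowest mean. In Ctrl cells the same genes ranged from 209 TPM (Psma3) to 637 TPM (Psmb4), a ratio of 3.04. The 17 cap subunits ranged from 112 TPM (Psmd11) to 433 TPM (Psmd4, a ubiquitin receptor) in E2 cells, and from 130 TPM (Psmd11) to 370 TPM (Psmd4) in Ctrl cells. Assembly factors and Psmb10 lay lower: Psmg1 averaged 38.7 ± 0.91 TPM in E2 cells and 82.0 ± 2.88 TPM in Ctrl cells (SD, n = 3 each), and Psmb10 averaged 11.7 ± 0.41 TPM in E2 cells and 27.2 ± 2.67 TPM in Ctrl cells.

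**Figure D1:**
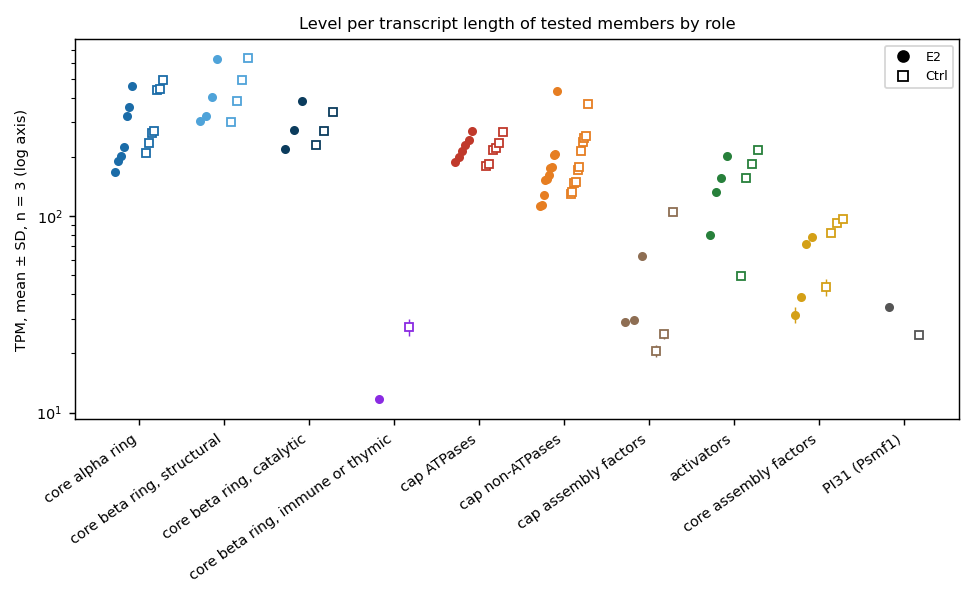
Mean TPM (log axis) of each tested member in E2 cells (filled circles) and Ctrl cells (open squares), with SD bars over 3 libraries, by role. Core and cap subunits lie between 112 and 637 TPM in these groups, while Psmb10, the assembly factors and Psmf1 lie below them.

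The remaining 5 members did not pass the filter. Psma8, the α subunit of germ cell proteasomes, had 0 counts in all 12 libraries. Psmb8, the immune counterpart of Psmb5, had 1 count in TMG_E2 replicate 2 and 0 counts in the other 11 libraries. Psmb9, the immune counterpart of Psmb6, had 8, 5 and 10 counts in TMG_E2 cells, 8, 12 and 3 in E2 cells, 9, 6 and 4 in TMG cells and 7, 5 and 9 in Ctrl cells. These are at most 0.595 CPM, and the groups overlap. Psmb11, the thymic β subunit, had at most 6 counts in a library, and so did Psme2b, a near copy of Psme2 whose reads the authors' counting could divide between the pair. Of the interferon-induced core subunits, Psmb10 was thus the only one at a level that could be tested.

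Estradiol changed most members, in both directions, and by less than it changed most genes. In E2 against Ctrl, 20 of the 45 tested members rose and 16 fell (edgeR quasi-likelihood test, adjusted p under 0.05 over all 8273 genes), where 82.7% of all tested genes were called. By direction, 44.4% of the tested members rose, against 41.5% of all genes, and 35.6% fell, against 41.2% of all genes. The counts of calls thus lie near those of the transcriptome. The changes were smaller in size: the median absolute log2 fold change was 0.25 over members and 0.41 over all genes, and 5 of 45 members (11.1%) changed past 1.5-fold against 36.2% of all genes. The E2 and Ctrl libraries did not overlap for 40 of 45 members, beside 85.9% of all genes. Cpa3, Ms4a2 and Il1rl1 of the mast cell list and Nbeal2 of the megakaryocyte list, given above, differ along the same split of libraries. Their part in the members' changes was not tested.

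The response recurred between TMG_E2 and TMG, which share no library with E2 and Ctrl. There 20 members rose and 17 fell, where 82.7% of all tested genes were called (40.9% higher and 41.8% lower). The TMG_E2 and TMG libraries did not overlap for 35 of 45 members, beside 81.8% of all genes. All 35 members called in both comparisons moved the same way, Psma3 was called only without TMG, and Psmb3 and Psmg4 only with it. Psmb2, Psmc1, Psmc5, Psmd6, Psmd11, Psmd14 and Psme2 were called in neither. Across the 45 members the log2 fold changes of both comparisons correlated with Pearson's r = 0.989, and across all tested genes with r = 0.989, a description only, since genes are not independent replicates.

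**Figure D2:**
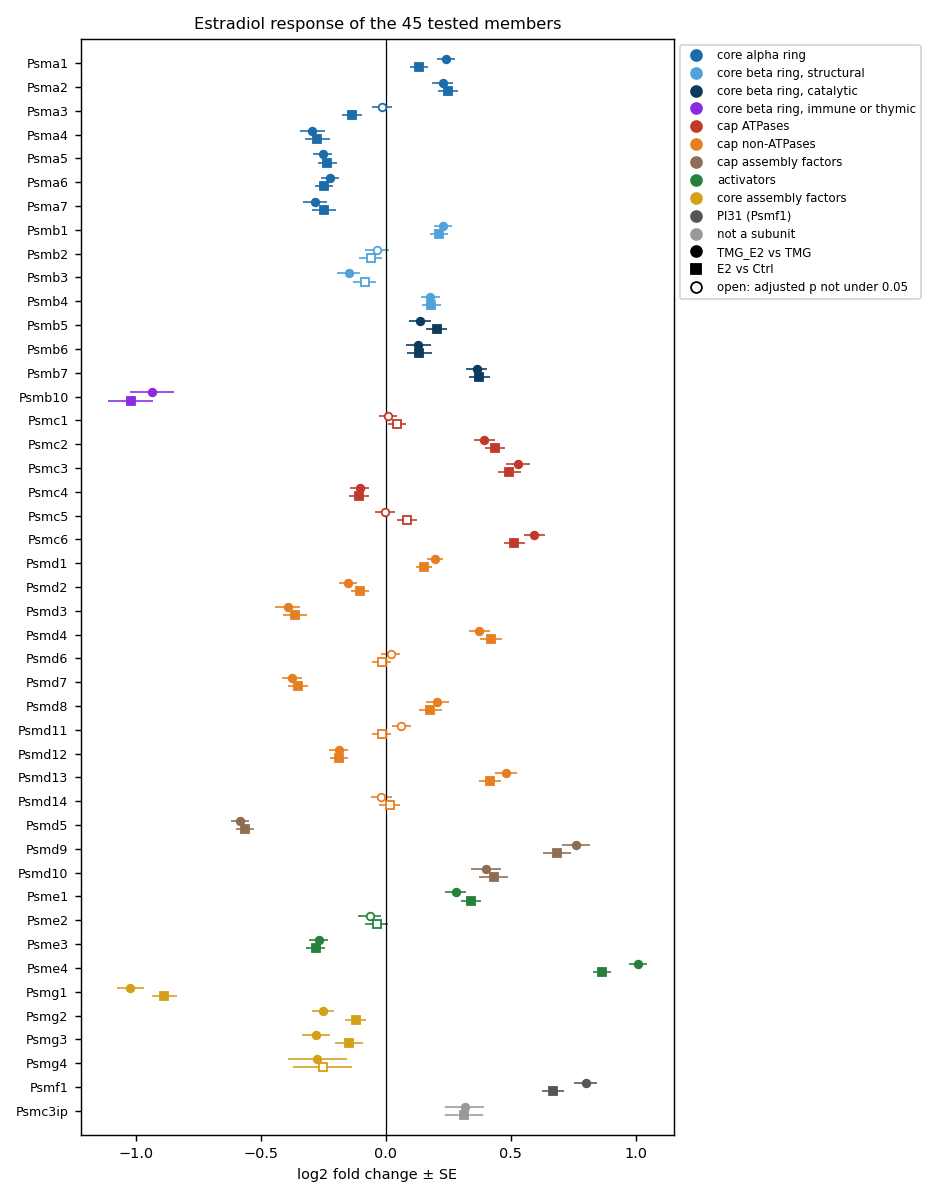
Log2 fold change ± SE of the 45 tested members for TMG_E2 against TMG (circles, upper row of each gene) and E2 against Ctrl (squares, lower row), coloured by role; open symbols have an adjusted p of 0.05 or more. Psme4 reaches 1.01 and 0.87, and Psmg1 and Psmb10 lie near -1 in both comparisons.

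The scale matters for the small changes. With library size alone in place of TMM scaling, the median of all genes moved to -0.10 in E2 against Ctrl and 16 members were called higher and 22 lower; in TMG_E2 against TMG the median moved to -0.11, with 18 higher and 23 lower. On the deposited TPM scale the median log2 ratio of all tested genes was -0.20 for E2 against Ctrl. There Psma1, Psmb4, Psmb6, Psmd1 and Psmd8, called higher, had lower TPM in E2 cells than in Ctrl cells. For TMG_E2 against TMG the median was -0.19 and the same held for Psmb4, Psmb5 and Psmb6. Relative to these medians, 0 called members changed sign. Directions given below are therefore relative to the bulk of the genes.

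In the core, most α subunits fell in E2 against Ctrl and no standard β subunit was called lower in the reported fit. Of the 7 tested α subunits, 5 fell with E2 against Ctrl (71.4%, beside 41.2% of all tested genes) and 2 rose (28.6%, beside 41.5%). Psma3, Psma4, Psma5, Psma6 and Psma7 fell, and Psma1 and Psma2 rose. The median log2 fold change of the 7 was -0.23. Psma6 had 219, 213 and 211 CPM in E2 cells and 251, 255 and 256 CPM in Ctrl cells, a log2 fold change of -0.25 ± 0.04 (SE, adjusted p = 5.28e-06). Psma4 had 127, 127 and 128 CPM in E2 cells and 148, 157 and 157 CPM in Ctrl cells, a log2 fold change of -0.27 ± 0.05. Psma2 ran the other way, with 256, 255 and 252 CPM in E2 cells and 210, 217 and 215 CPM in Ctrl cells, a log2 fold change of 0.25 ± 0.04 (adjusted p = 2.76e-05). For none of these genes did the E2 and Ctrl libraries overlap, although the α subunits are built into the ring in equal numbers.

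The 3 standard cutting subunits of the core all rose in E2 against Ctrl, where 41.5% of all tested genes did. Psmb7, which cuts after basic residues, had 219, 224 and 216 CPM in E2 cells and 167, 169 and 172 CPM in Ctrl cells (log2 fold change 0.37 ± 0.04, adjusted p = 2.06e-07). Psmb5, which cuts after hydrophobic residues, had 131, 136 and 143 CPM in E2 cells and 118, 120 and 119 CPM in Ctrl cells (0.20 ± 0.04, adjusted p = 0.000384). Psmb6, which cuts after acidic residues, had 129, 142 and 138 CPM in E2 cells and 120, 126 and 127 CPM in Ctrl cells (0.13 ± 0.05, adjusted p = 0.0223). The Psmb6 call is the least firm of these: its adjusted p was 0.0848 without E2 replicate 2, 0.0597 without E2 replicate 3, 0.0939 without Ctrl replicate 1 and 0.478 with library size alone. Psmb7 shares 405 exonic bases with Nek6 on the other strand. Nek6 rose by a log2 fold change of 1.04, from 37.0 CPM in Ctrl cells to 75.9 CPM in E2 cells. The expected counts of Psmb7 were whole numbers in all 12 libraries, so none of its reads were divided with another gene. The strand setting is not known, and whether reads were credited undivided to the wrong gene was not tested. Some reads of Psmb5 were divided with other genes by the authors' counting.

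With TMG present, the cutting subunits stood at the following levels. Psmb7 had 217, 215 and 242 CPM in TMG_E2 cells and 176, 175 and 171 CPM in TMG cells, a log2 fold change of 0.36 ± 0.04. Psmb5 had 126, 134 and 140 CPM in TMG_E2 cells and 116, 121 and 124 CPM in TMG cells, a log2 fold change of 0.14 ± 0.04. Psmb6 had 136, 143 and 159 CPM in TMG_E2 cells and 130, 132 and 136 CPM in TMG cells, a log2 fold change of 0.13 ± 0.05 (adjusted p = 0.026), where the groups overlap. That Psmb6 call ended without TMG_E2 replicate 3 (log2 fold change 0.07, adjusted p = 0.146), without TMG replicate 1 (adjusted p = 0.0815) and without TMG replicate 2 (adjusted p = 0.0605). Of the 4 structural β subunits, Psmb1 and Psmb4 rose in both comparisons (log2 fold changes of 0.21 and 0.18 in E2 against Ctrl), Psmb3 fell only in TMG_E2 against TMG (-0.15), and Psmb2 was not called in either. Psmb3 was not called in the test of the difference between these comparisons. In E2 against Ctrl its log2 fold change was -0.08 ± 0.05 (adjusted p = 0.0965). It was called lower there with only the groups compared (adjusted p = 0.0389) and with library size alone (adjusted p = 0.000742). Psmb2 was also called lower there with library size alone (adjusted p = 0.00252).

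Psmb10, the immune counterpart of Psmb7, moved opposite to it. It had 9.05, 9.70 and 9.03 CPM in E2 cells against 18.4, 17.2 and 20.7 CPM in Ctrl cells, and 9.78, 10.9 and 10.8 CPM in TMG_E2 cells against 18.5, 19.6 and 22.01 CPM in TMG cells. Every library with E2 lay below every library without it. The log2 fold change was -1.02 ± 0.09 in E2 against Ctrl (adjusted p = 1.01e-08) and -0.94 ± 0.09 in TMG_E2 against TMG (adjusted p = 2.79e-08). Per transcript length, Psmb10 stood at 3.39 ± 0.25% of Psmb7 in TMG_E2 cells, 3.06 ± 0.07% in E2 cells, 8.35 ± 0.89% in TMG cells and 8.03 ± 0.69% in Ctrl cells (SD, n = 3 each).

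Among the 6 ATPases of the cap, 3 rose in E2 against Ctrl (50%, beside 41.5% of all tested genes) and 1 fell (16.7%, beside 41.2%). Psmc6 had 226, 237 and 230 CPM in E2 cells and 156, 173 and 156 CPM in Ctrl cells, a log2 fold change of 0.51 ± 0.04 (adjusted p = 3.55e-09). Psmc3 and Psmc2 rose by log2 fold changes of 0.50 ± 0.05 and 0.44 ± 0.04, while Psmc4 fell by 0.11 ± 0.04 (adjusted p = 0.0206). The ATPases form a single ring, and yet Psmc1 and Psmc5 were not called, with log2 fold changes of 0.05 and 0.08. Psmc5 lay near the threshold (adjusted p = 0.055). It was called higher with the replicate block (adjusted p = 0.0469), with only the groups compared (0.0289) and without Ctrl replicate 2 (0.0262). The Psmc4 call ended without E2 replicate 1 (adjusted p = 0.0807) and without Ctrl replicate 3 (adjusted p = 0.0632). Psmc3 shares 215 exonic bases with Slc39a13 on the other strand, which rose by 0.80, from 5.55 CPM in Ctrl cells to 9.67 CPM in E2 cells. Psmc3 itself averaged 204 CPM in Ctrl cells and 288 CPM in E2 cells, with whole expected counts in all 12 libraries. In TMG_E2 against TMG the log2 fold changes were 0.60 for Psmc6, 0.53 for Psmc3, 0.39 for Psmc2 and -0.10 for Psmc4.

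The 11 non-ATPase cap subunits were split, with 4 higher, 4 lower and 3 not called in E2 against Ctrl. These shares, 36.4% each way, lie near the 41.5% higher and 41.2% lower of all tested genes. Psmd4, which binds ubiquitin chains, had 362, 375 and 372 CPM in E2 cells and 269, 280 and 278 CPM in Ctrl cells, a log2 fold change of 0.42 ± 0.04. Psmd13, a scaffold subunit of the cap's lid, rose by the same 0.42 ± 0.04, though it shares 342 exonic bases with Sirt3 on the other strand, a gene that was not called. Psmd8 and Psmd1 rose by 0.18 and 0.15, Psmd1 sharing 252 exonic bases with Htr2b on the other strand. On the lower side, Psmd3, also of the lid, had 225, 231 and 242 CPM in E2 cells and 306, 286 and 306 CPM in Ctrl cells, a log2 fold change of -0.36 ± 0.05. Psmd7, the partner of the deubiquitinase Psmd14 in the lid, had 180, 176 and 188 CPM in E2 cells and 225, 233 and 235 CPM in Ctrl cells, a log2 fold change of -0.35 ± 0.04. Psmd12 and Psmd2 fell by 0.19 and 0.10. Psmd14 itself had 152, 148 and 151 CPM in E2 cells and 146, 153 and 146 CPM in Ctrl cells, which overlap, with a log2 fold change of 0.02 ± 0.04. Each of the 8 called genes moved the same way in TMG_E2 against TMG.

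In E2 against Ctrl, the members with the largest changes were an activator, assembly factors, the regulator Psmf1 and Psmb10 rather than standard subunits of the core or cap. In TMG_E2 against TMG 6 of 45 members (13.3%) changed past 1.5-fold, beside 37.7% of all tested genes. The cap ATPase Psmc6 was among these 6 members (0.60 ± 0.04). Psme4, also called PA200, is an activator known for the breakdown of acetylated histones. It had 343, 340 and 338 CPM in E2 cells against 187, 184 and 189 CPM in Ctrl cells, and 378, 376 and 351 CPM in TMG_E2 cells against 188, 183 and 178 CPM in TMG cells. The log2 fold change was 0.87 ± 0.04 in E2 against Ctrl (adjusted p = 2.81e-13) and 1.01 ± 0.04 in TMG_E2 against TMG (adjusted p = 3.72e-14). Every library with E2 lay above every library without it, by a wide margin against the spread within groups.

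Psmf1, known as PI31, binds the core and inhibits it in vitro. It had 82.7, 84.2 and 84.3 CPM in E2 cells against 51.1, 53.2 and 53.5 CPM in Ctrl cells, and 87.4, 97.7 and 97.1 CPM in TMG_E2 cells against 53.8, 54.2 and 53.7 CPM in TMG cells. The log2 fold change was 0.67 ± 0.05 in E2 against Ctrl (adjusted p = 2.54e-10) and 0.80 ± 0.05 in TMG_E2 against TMG (adjusted p = 2.14e-11). The groups with and without E2 do not overlap.

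The 3 cap assembly factors, which hold pairs of ATPases until the cap base is complete, moved in both directions. Psmd9 had 48.0, 53.3 and 50.6 CPM in E2 cells against 28.9, 33.2 and 32.4 CPM in Ctrl cells, and 53.7, 56.8 and 56.6 CPM in TMG_E2 cells against 32.6, 32.2 and 33.7 CPM in TMG cells. Its log2 fold change was 0.68 ± 0.06 in E2 against Ctrl (adjusted p = 3.37e-09) and 0.76 ± 0.06 in TMG_E2 against TMG. Psmd5 had 87.5, 82.8 and 82.9 CPM in E2 cells against 123, 125 and 126 CPM in Ctrl cells, and 83.3, 81.7 and 83.9 CPM in TMG_E2 cells against 124, 127 and 122 CPM in TMG cells. Its log2 fold change was -0.56 ± 0.04 in E2 against Ctrl (adjusted p = 1.41e-10) and -0.58 ± 0.04 in TMG_E2 against TMG. Psmd10, also called gankyrin, rose by 0.43 ± 0.06 and 0.40 ± 0.06 in these comparisons. Psmd9 shares 1849 exonic bases with Gm26745 on the other strand, a gene not analysed here. The expected counts of Psmd9 were whole in all 12 libraries, so none of its reads were divided. Whether reads were credited undivided to the wrong gene was not tested, and its value is uncertain to that extent.

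Most core assembly factors fell. Psmg1 had 22.004, 22.7 and 23.2 CPM in E2 cells against 41.9, 43.3 and 40.1 CPM in Ctrl cells, and 18.5, 19.8 and 20.0 CPM in TMG_E2 cells against 39.2, 40.2 and 38.7 CPM in TMG cells. The log2 fold change was -0.89 ± 0.05 in E2 against Ctrl (adjusted p = 3.37e-11) and -1.02 ± 0.05 in TMG_E2 against TMG (adjusted p = 7.54e-12). Its partner in guiding assembly of the α ring, Psmg2, changed less: 48.9, 47.8 and 49.8 CPM in E2 cells against 54.0, 53.1 and 51.8 CPM in Ctrl cells, a log2 fold change of -0.12 ± 0.04 (adjusted p = 0.0152). Between TMG_E2 and TMG, Psmg2 fell by 0.25 ± 0.04, to 41.9, 41.9 and 40.5 CPM in TMG_E2 cells against 48.5, 51.5 and 47.9 CPM in TMG cells.

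Psmg3 and Psmg4 form the other pair of core assembly factors. Psmg3 had 33.8, 33.6 and 34.8 CPM in E2 cells and 39.0, 36.1 and 37.9 CPM in Ctrl cells (log2 fold change -0.15 ± 0.06, adjusted p = 0.0211), and it had 30.1, 31.7 and 34.9 CPM in TMG_E2 cells and 37.8, 39.3 and 39.7 CPM in TMG cells (-0.28 ± 0.06). Psmg4 had 7.32, 8.96 and 8.38 CPM in E2 cells and 10.9, 9.22 and 9.35 CPM in Ctrl cells, with a log2 fold change of -0.25 ± 0.12 that missed the threshold (adjusted p = 0.059). It fell in TMG_E2 against TMG, with 7.29, 8.60 and 9.93 CPM in TMG_E2 cells and 9.17, 11.3 and 10.5 CPM in TMG cells (-0.27 ± 0.12, adjusted p = 0.0438, groups overlapping). In all, 3 of 4 Psmg genes fell in E2 against Ctrl (75%, beside 41.2% of all tested genes). In TMG_E2 against TMG 4 of 4 fell, beside 41.8% of all tested genes. Psmg4, however, passed the filter only through libraries without E2, and no library with E2 was above 9.93 CPM. The filter thus favoured a fall of Psmg4, and its call adds no support to the count. Of the small changes, Psmg3 was not called in E2 against Ctrl without E2 replicate 1, E2 replicate 2, Ctrl replicate 1 or Ctrl replicate 3 (adjusted p = 0.0502, 0.0749, 0.0843 and 0.0521), and Psmg2 was not without E2 replicate 2 (0.0812) or Ctrl replicate 1 (0.0571). The Psmg4 call in TMG_E2 against TMG ended when either TMG_E2 replicate 1 or 2, or TMG replicate 2 or 3, was left out, with adjusted p between 0.0756 and 0.245.

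**Figure D3:**
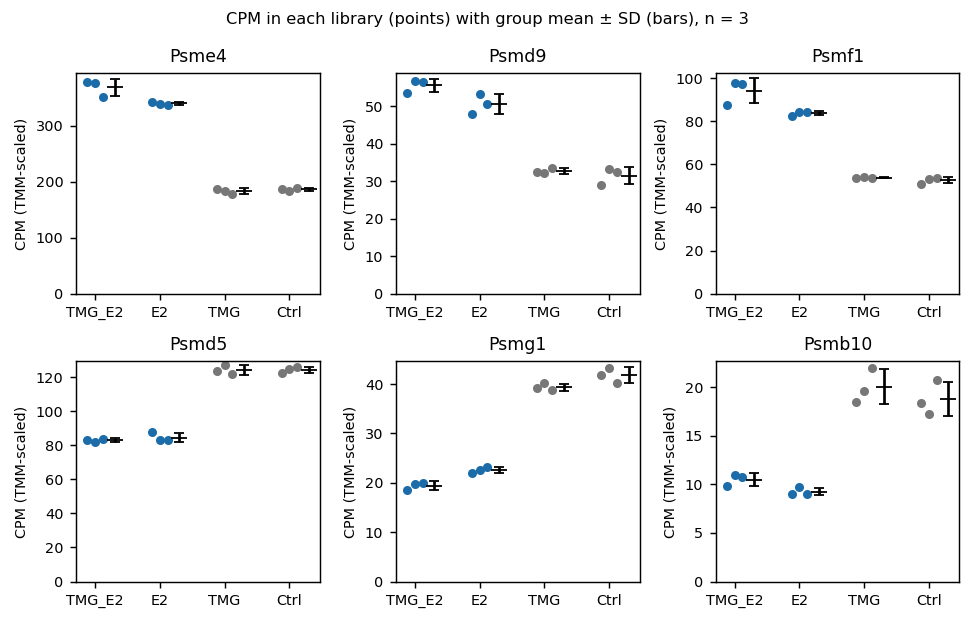
CPM of Psme4, Psmd9, Psmf1, Psmd5, Psmg1 and Psmb10 in each of the 12 libraries (points, blue with E2 and grey without) with the group mean ± SD (bars, n = 3). For Psme4 all libraries with E2 lie between 338 and 378 CPM and all without it between 178 and 189 CPM, and in each panel the libraries with and without E2 are separate.

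The promoter windows of 4 of these members are printed to show the letters around their starts, for a pair that rose (Psme4 and Psmd9) and a pair that fell (Psmg1 and Psmb10). Sequences run from 250 bases before to 50 bases after the gene's start, 5′ to 3′ on the gene's strand, from RefSeq on GRCm38.p6. Capitals mark matches on either strand to TGACNNNGC, the core of the antioxidant response element to which Nfe2l1 and Nfe2l2 bind, to CCAAT, or to GATAA, the letters GATA factors bind; no matches overlap in these windows. Psme4 lies at chr11:30771525-30771824 on the plus strand, Psmd9 at chr5:123227940-123228239 on the plus strand, Psmg1 at chr16:95990911-95991210 on the minus strand and Psmb10 at chr8:105938343-105938642 on the minus strand.
Psme4: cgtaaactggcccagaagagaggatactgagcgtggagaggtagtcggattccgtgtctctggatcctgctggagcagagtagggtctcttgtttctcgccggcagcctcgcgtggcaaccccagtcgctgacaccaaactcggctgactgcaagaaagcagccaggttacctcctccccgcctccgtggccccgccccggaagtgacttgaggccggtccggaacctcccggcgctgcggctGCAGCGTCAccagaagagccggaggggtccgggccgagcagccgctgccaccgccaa
Psmd9: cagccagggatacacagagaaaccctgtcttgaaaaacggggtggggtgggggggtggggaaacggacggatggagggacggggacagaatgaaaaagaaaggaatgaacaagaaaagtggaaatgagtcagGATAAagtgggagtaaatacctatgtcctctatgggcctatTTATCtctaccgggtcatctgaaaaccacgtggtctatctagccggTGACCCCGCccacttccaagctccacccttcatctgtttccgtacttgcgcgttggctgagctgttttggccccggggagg
Psmg1: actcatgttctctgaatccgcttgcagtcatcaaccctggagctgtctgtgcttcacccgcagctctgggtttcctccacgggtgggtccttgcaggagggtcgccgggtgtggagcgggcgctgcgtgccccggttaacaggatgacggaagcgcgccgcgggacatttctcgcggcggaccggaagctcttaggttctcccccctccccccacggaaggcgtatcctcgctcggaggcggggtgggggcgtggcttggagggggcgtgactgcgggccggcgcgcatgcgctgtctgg
Psmb10: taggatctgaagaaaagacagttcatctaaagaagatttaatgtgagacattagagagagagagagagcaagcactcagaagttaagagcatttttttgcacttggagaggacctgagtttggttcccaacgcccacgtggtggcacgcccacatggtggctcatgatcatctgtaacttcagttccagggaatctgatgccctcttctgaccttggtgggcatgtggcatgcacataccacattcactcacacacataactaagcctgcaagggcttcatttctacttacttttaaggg
The Psme4 window holds 1 match to TGACNNNGC, on the other strand, Psmd9 holds 1 match to TGACNNNGC and 2 to GATAA, and Psmg1 and Psmb10 hold 0 matches to any of the 3. Over 45 promoter windows found for 42 of the 50 members, TGACNNNGC was present in 13.3%, beside 12.4% of all 32851 promoters in the table. GATAA was present in 20.0% of member windows and 25.4% of all promoters, and CCAAT in 33.3% of member windows and 37.4% of all. Of 18 windows of members that rose in E2 against Ctrl, 5 held TGACNNNGC (those of Psmb5, Psmb6, Psmc6, Psmd9 and Psme4). Of 14 windows of members that fell, 1 did (that of Psmd12). GATAA was present in 6 of the 18 windows and 1 of the 14, and CCAAT in 6 and 4. Of 9 windows of members not called, 0 held TGACNNNGC, 2 held GATAA and 3 held CCAAT. Whether these counts differ was not tested. A match is a description of letters and not of a bound site.

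The other activator subunits moved in different directions. Psme1, a subunit of the PA28 activator that interferon induces in many cells, had 116, 117 and 119 CPM in E2 cells against 90.8, 92.7 and 93.9 CPM in Ctrl cells, a log2 fold change of 0.34 ± 0.04 (adjusted p = 6.16e-07). Its partner in the same ring, Psme2, had 70.5, 70.2 and 65.8 CPM in E2 cells and 70.5, 67.8 and 73.2 CPM in Ctrl cells, which overlap (-0.04 ± 0.05, adjusted p = 0.477). Psme3, which forms the nuclear activator PA28γ, had 264, 279 and 283 CPM in E2 cells and 327, 331 and 343 CPM in Ctrl cells, a log2 fold change of -0.28 ± 0.04 (adjusted p = 3.01e-06). With TMG, Psme1 rose by 0.28 and Psme3 fell by 0.27 in TMG_E2 against TMG, and Psme2 was not called (-0.06).

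Expressed per transcript length, the ratio of Psme4 to Psme3 was 0.591 ± 0.027 in TMG_E2 cells, 0.512 ± 0.030 in E2 cells, 0.239 ± 0.009 in TMG cells and 0.227 ± 0.006 in Ctrl cells (SD, n = 3 each). The ratio of Psme1 to Psme2 was 1.58 ± 0.03 in TMG_E2 cells, 1.52 ± 0.07 in E2 cells, 1.26 ± 0.01 in TMG cells and 1.18 ± 0.04 in Ctrl cells. Psme4 thus stood nearer to Psme3 in every library with E2 than in any without it, and remained below it.

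Summed by class, the RNA of the core assembly factors lay lower in every library with E2 than in any without it on the CPM and the TPM scale alike, while the place of the other classes depended on the scale. The 19 core genes summed to 2829 ± 138 CPM in TMG_E2 cells, 2734 ± 31 in E2 cells, 2776 ± 20 in TMG cells and 2706 ± 49 in Ctrl cells (SD, n = 3 each). The 20 cap genes, without Psmc3ip, summed to 4103 ± 153 CPM in TMG_E2 cells, 3975 ± 38 in E2 cells, 3833 ± 13 in TMG cells and 3730 ± 47 in Ctrl cells. The activators summed to 826 ± 8 CPM in TMG_E2 cells, 802 ± 7 in E2 cells, 674 ± 17 in TMG cells and 683 ± 14 in Ctrl cells. The Psmg genes summed to 102 ± 4 CPM in TMG_E2 cells, 114 ± 2 in E2 cells, 138 ± 4 in TMG cells and 142 ± 3 in Ctrl cells. In CPM the cap and the activators were higher in every library with E2 than in any without it, and for the core the libraries overlap. The activator sum mixes directions. Psme4 averaged 340 CPM in E2 cells against 186 CPM in Ctrl cells, and Psme1 117 against 92.4 CPM. Psme3 fell, at 275 against 334 CPM, and Psme2 was not called, so the higher sum is no rise of the class as a whole. In TPM, where the median of all genes is shifted as given above, the cap summed to 3473 to 3556 in libraries with E2 and 3648 to 3738 in those without it, and the core to 4409 to 4524 with E2 and 4931 to 5070.1 without it, so that both were lower with E2. The activators overlap in TPM, at 562 to 594 with E2 and 582 to 622 without it. The Psmg genes summed to 193 to 225 TPM with E2 and 290.3 to 326 TPM without it.

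Thiamet-G alone changed a single member. In TMG against Ctrl, Psme1 rose and 0 members fell, where 5.15% of all tested genes were called (3.01% higher and 2.14% lower). The TMG and Ctrl libraries did not overlap for 13 of 45 members, beside 28.7% of all genes. Psme1 had 105, 105 and 99.4 CPM in TMG cells and 90.8, 92.7 and 93.9 CPM in Ctrl cells, a log2 fold change of 0.16 ± 0.04 (adjusted p = 0.0361). This call did not survive leaving out TMG replicate 1 or 2 or any 1 Ctrl replicate, with adjusted p between 0.0866 and 0.137. When TMG and Ctrl were fitted without the other groups, 4 members rose and 0 fell. Of all 8273 tested genes, 431 rose and 337 fell in that fit. At an unadjusted p under 0.05 in the reported fit there were 7 members. The share of all genes at that level is not given here, so nothing is drawn from this count. Of the 45 members, 36 had a log2 fold change above 0, beside 51.6% of all genes, with a median of 0.04 against 0.00. Ctrl replicate 1 was the lowest of its group for 28 of the 45 members, and its part in this lean was not tested.

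In cells given E2, the changes with Thiamet-G were small. In TMG_E2 against E2, 7 members rose and 2 fell, where 12.8% of all tested genes were called (5.61% higher and 7.14% lower), and the groups did not overlap for 17 of 45 members, beside 28.5% of all genes. Psmf1 rose by 0.17 ± 0.04 (adjusted p = 0.0196), with 87.4, 97.7 and 97.1 CPM in TMG_E2 cells against 82.7, 84.2 and 84.3 CPM in E2 cells. Psmc3 had 305, 309 and 347 CPM in TMG_E2 cells against 275, 289 and 299 CPM in E2 cells, a log2 fold change of 0.16 ± 0.05 (adjusted p = 0.0382). Psma1 had 195, 187 and 200 CPM in TMG_E2 cells against 176, 175 and 174 CPM in E2 cells, a log2 fold change of 0.15 ± 0.04 (adjusted p = 0.0132). Psma3, Psmc6, Psmd13 and Psme4 rose by 0.13, 0.13, 0.14 and 0.12. In these 7 genes the TMG_E2 and E2 libraries do not overlap.

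Both genes that fell with Thiamet-G in E2-treated cells guide assembly of the α ring. Psmg2 had 41.9, 41.9 and 40.5 CPM in TMG_E2 cells against 48.9, 47.8 and 49.8 CPM in E2 cells, a log2 fold change of -0.24 ± 0.04 (adjusted p = 0.00247). Psmg1 had 18.5, 19.8 and 20.0 CPM in TMG_E2 cells against 22.004, 22.7 and 23.2 CPM in E2 cells, a log2 fold change of -0.22 ± 0.06 (adjusted p = 0.0167). The groups do not overlap in either gene. Of the 9 calls in this comparison, that of Psmg2 alone stood in every alternative run. The Psmg1 call ended without TMG_E2 replicate 1 (adjusted p = 0.0644) and without E2 replicate 3 (adjusted p = 0.0686).

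The number of higher calls changed with single libraries, among the members and, for the E2 libraries, among all tested genes too. TMG_E2 replicate 3 was the highest of its group for 35 of the 45 members (77.8%), while it was the highest for 38.0% of all tested genes, and its core genes summed to 2988 CPM, against 2748 and 2750 CPM in the other TMG_E2 libraries. Without it, 2 members rose (Psma1 and Psme4) and 2 fell, while 505 of all tested genes rose, against 464 in the reported fit. Without E2 replicate 1, 2 or 3, the numbers that rose were 1, 0 and 2, beside 329, 238 and 283 of all tested genes. Without TMG_E2 replicate 1 there were 4, beside 458 of all tested genes. With the replicate number as a block, 9 members rose and 2 fell, Psmd1 and Psmd9 being added, while 673 of all tested genes rose and 781 fell. When TMG_E2 and E2 were fitted without the other groups, 0 members rose and Psmg2 alone fell, while 227 of all tested genes rose and 312 fell. What sets TMG_E2 replicate 3 apart was not tested.

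**Figure D4:**
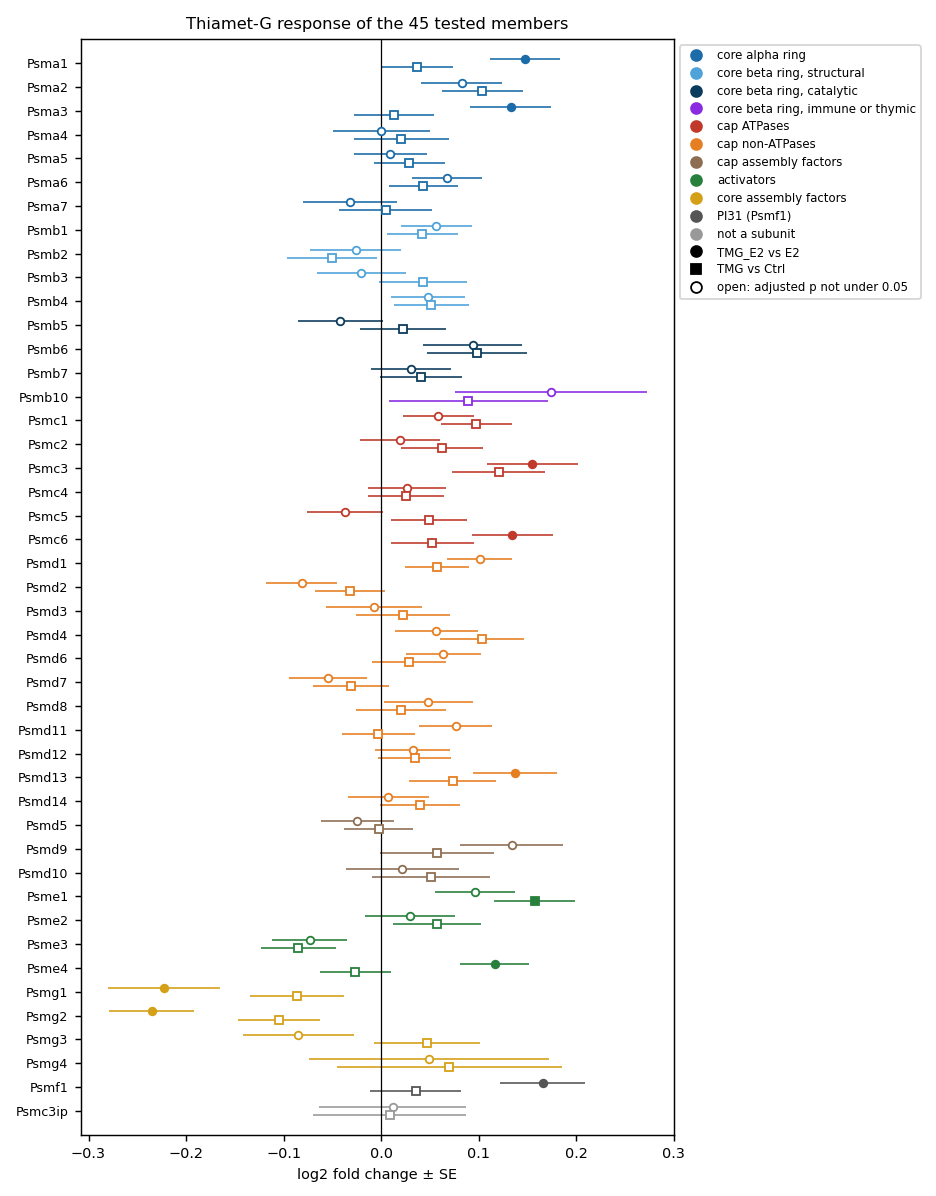
Log2 fold change ± SE of the 45 tested members for TMG_E2 against E2 (circles, upper row of each gene) and TMG against Ctrl (squares, lower row), coloured by role; filled symbols have an adjusted p under 0.05. All values lie between -0.24 and 0.17, and the filled symbols are 9 circles and the Psme1 square.

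Whether the Thiamet-G effect differed with E2 was tested by the interaction, the TMG_E2 to E2 difference minus the TMG to Ctrl difference. With edgeR 0 of the 45 members were called, where 0.931% of all tested genes were (0.266% higher and 0.665% lower), and DESeq2 also called 0. The share of all genes with an unadjusted p under 0.05 is not given here. At that level there were 3 members, a count from which nothing is drawn without that share: Psma1 (0.11 ± 0.05), Psme4 (0.14 ± 0.05) and Psmg2 (-0.13 ± 0.06). Psme4 was the largest of these, with an adjusted p of 0.247, and it passed the threshold only without TMG_E2 replicate 3 (0.18, adjusted p = 0.0484). The calls in TMG_E2 against E2 are thus not shown to differ from the changes in TMG against Ctrl.

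Partners of the proteasome outside the symbol rule moved in both directions with E2. Of 31 genes listed, 30 passed the filter. In E2 against Ctrl 17 of these rose (56.7%, beside 41.5% of all tested genes) and 8 fell (26.7%, beside 41.2%), with a median log2 fold change of 0.16. Nfe2l2, a factor of the antioxidant response, had 154, 144 and 142 CPM in E2 cells and 71.3, 69.2 and 75.8 CPM in Ctrl cells, a log2 fold change of 1.03 ± 0.05 (adjusted p = 1.83e-12). Nfe2l1, the factor that raises proteasome genes when the proteasome is inhibited, had 85.1, 87.1 and 88.9 CPM in E2 cells and 105, 108 and 107 CPM in Ctrl cells, a log2 fold change of -0.29 ± 0.04 (adjusted p = 1.39e-06). Fbxo7, an F-box protein that binds Psmf1, rose by 0.79 ± 0.05. Both shuttle factors Ubqln4 and Rad23b, which carry ubiquitin-tagged proteins to the cap, fell by 0.91 ± 0.05 and 0.77 ± 0.04. Pomp, which completes assembly of the core, rose slightly, by 0.13 ± 0.04 (adjusted p = 0.00894), while the Psmg factors that act before it did not rise.

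In TMG_E2 against TMG, 15 of the 30 partners rose, beside 40.9% of all tested genes, and 7 fell (23.3%, beside 41.8%). The largest changes were those of Nfe2l2 (1.10 ± 0.05), Zfand2a, a stress-induced cap-binding protein (0.76 ± 0.07), Ubqln4 (-0.99 ± 0.05) and Rad23b (-0.80 ± 0.04). Nfe2l1 fell by 0.16, and Pomp was not called (0.06, adjusted p = 0.223). In TMG against Ctrl 2 partners rose (6.67%, beside 3.01% of all tested genes) and 2 fell (6.67%, beside 2.14%). Those that rose were Rps27a, a ubiquitin precursor (0.19), and Shfm1, a small lid subunit (0.17). Those that fell were Ddi2, the protease that cuts the Nfe2l1 precursor (-0.17), and Ube3c, a ubiquitin ligase on the cap (-0.15). In TMG_E2 against E2 the deubiquitinase Usp14 rose by 0.13 and Ube3c fell by 0.15. Each is 3.33% of the tested partners, beside 5.61% of all tested genes higher and 7.14% lower. The interaction called 0 partners with edgeR.

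Genes that use the proteasome's peptides for display to T cells, or that answer interferon, were mostly scarce, with 7 of 13 listed genes past the filter. In E2 against Ctrl 4 of these 7 rose (57.1%, beside 41.5% of all tested genes) and 2 fell (28.6%, beside 41.2%). B2m, the light chain of MHC class I, had 266, 288 and 294 CPM in E2 cells against 113, 111 and 115 CPM in Ctrl cells, a log2 fold change of 1.32 ± 0.05 (adjusted p = 6.38e-14). The peptide-loading factor Tapbp and the class I heavy chain H2-D1 fell by 0.61 ± 0.08 and 0.24 ± 0.04. In TMG_E2 against TMG 5 rose (71.4%, beside 40.9% of all tested genes) and 2 fell (28.6%, beside 41.8%), among them B2m (1.37), Irf9 (0.41), Tapbp (-0.52) and H2-D1 (-0.27). B2m also rose with Thiamet-G, by 0.22 in TMG against Ctrl, where the peptide transporter gene Tap2 rose by 0.24, and by 0.27 in TMG_E2 against E2, where it alone of the list was called. Psmb10 and B2m, genes of the same pathway, thus changed in opposite directions with E2, and Psmb8 and Psmb9 stayed at or near 0 counts in the groups with higher B2m.

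Psmc3ip, matched by symbol only, had 20.2, 22.2 and 22.1 CPM in E2 cells and 15.8, 16.9 and 19.2 CPM in Ctrl cells, a log2 fold change of 0.31 ± 0.08 (adjusted p = 0.00112). It is counted among the 20 members that rose. It shares 385 exonic bases with Mlx on the other strand, a gene that was not called.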

How the data were processed

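RNA sequencing of 12 libraries (4 groups of 3, from the sample titles) was analysed from the authors' RSEM output. Reads had been checked with FastQC 0.11.2 and quantified with RSEM 1.2.22 against GRCm38, per the submitters' processing notes, which also name Bowtie2; the authors' own tests used edgeR 3.14.0 in R 3.2.2. The deposited expected counts are RSEM estimates in which reads that match several genes are divided. The deposited TPM values, which the authors' RSEM run scaled for length and depth, served for levels between genes and for 1 check of scale that was added after seeing the data. Whether RSEM used the strand is not given here.

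Expected counts were rounded and fitted with edgeR 4.0.16 in R 4.3.3 (quasi-likelihood test, TMM scaling, 1 fit of all 12 libraries, 5 comparisons, Benjamini-Hochberg adjustment over 8273 genes, threshold 0.05). Standard errors were derived from the F statistics. CPM values are scaled by TMM. The test was checked on simulated data. Members and lists were chosen with earlier results of these data known. Values in every library are given for the 3 highest and 3 lowest called members of a comparison, for Psmb5 to Psmb10, and for Psme, Psmf1 and Psmg genes, with others added where a role is described. Partners named are Pomp, Nfe2l1 and Nfe2l2 and the 2 highest and 2 lowest called of each list, except that not every gene this rule names is reported here. Expected counts were whole (within 0.005) in all 12 libraries for 42 of 50 members. The others (Psma3, Psmb5, Psmb11, Psmd7, Psmd11, Psme2, Psme2b and Psme4) share reads with other genes and are uncertain to that extent. Replicates of every group differed by more than sampling noise (chi-square over degrees of freedom 2.41 to 13.1).

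To see whether replicate numbers pair the libraries, deviations from group means were correlated between groups. Same-numbered libraries correlated at 0.334, 0.212 and 0.213 for TMG_E2 with E2 and at 0.479, 0.153 and 0.300 for TMG_E2 with TMG. The values were 0.0917, 0.233 and 0.107 for E2 with Ctrl and 0.102, 0.0529 and 0.207 for TMG with Ctrl. Libraries with different numbers were not correlated, so these values have no baseline and their ranges overlap. Whether the numbers pair the libraries is thus not settled by the data, and the labels do not state it. All values reported come from the fit without the replicate block unless the block is named, and the block was run as an alternative, as were library size alone, RLE size factors, no filter, DESeq2 1.42.0, a fit of only the groups compared, and leaving out each library. Gene positions and promoters come from RefSeq on GRCm38.p6, and exon overlaps from GENCODE on GRCm38.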

Additional observations from a re-analysis of the deposited data

How the results depend on the processing

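In E2 against Ctrl the numbers of members higher and lower were 20 and 16, and over RLE size factors, no filter, DESeq2, the replicate block and a fit of only the groups compared they were 20 to 21 and 16 to 18. With library size alone they were 16 and 22, and 19 to 21 and 13 to 16 when a replicate was left out; 28 of the 36 calls stood in every alternative, and 33 of 37 in TMG_E2 against TMG. In TMG against Ctrl 1 member rose, against 0 with library size alone, 2 with the replicate block and 4 with only the groups compared, and 0 to 1 when a replicate was left out; 0 calls stood throughout. In TMG_E2 against E2 7 members rose, against 3 with library size alone, 0 with only the groups compared and 0 to 7 when a replicate was left out. Of all tested genes 464 rose, against 348, 227 and 238 to 505 in these runs. In the same comparison 2 fell, against 1 with DESeq2, 1 with only the groups compared and 1 to 2 when a replicate was left out. The interaction called 0 members, and 0 to 1 when a replicate was left out. With library size alone Psmc1 was called lower in TMG_E2 against TMG (-0.090), where it was not called and lay above 0 in the reported fit. That alternative shifts all genes, as described above; the causes of the other changes were not tested. With the replicate block the counts higher and lower were 21 and 17 in E2 against Ctrl, 9 and 2 in TMG_E2 against E2, 20 and 17 in TMG_E2 against TMG, and 0 and 0 for the interaction, and it ended 0 calls. Psma8, Psmb8, Psmb9, Psmb11 and Psme2b lay too near 0 counts at this depth to be compared between groups.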

Other observations

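Libraries of a group differed in how the members stood as a whole. In TMG_E2 replicate 3, 41 of the 45 members lay above the median deviation of all genes from the other libraries of the group, on the CPM scale and on the TPM scale alike. The median member was higher than the median gene by 0.09 (log2 CPM) and 0.08 (log2 TPM) there, while Psme4 ran the other way, at 351 CPM against 378 and 376 CPM. The same difference, median member minus median gene, was -0.05 in TMG_E2 replicates 1 and 2 and -0.04 in Ctrl replicate 1 (log2 CPM).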
